A study of Mus musculus with 30 samples.

Results

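The genes described here encode nuclear subunits of the oxidative phosphorylation machinery, the 5 protein complexes of the inner mitochondrial membrane. They were chosen by name: 39 gene symbols were listed, and every row of the deposited RPE and BMDM tables that carried one of them was taken. The 39 symbols matched 40 of the 55573 rows in each table, because Atp5o names 2 rows. The second Atp5o row held 0 reads in all 30 libraries, and the other 39 rows each passed the filter of a mean normalized count of 10 in both tissues. Of these 39 genes, 20 are named for complex I, 4 encode complex II, 6 complex III, 6 complex IV and 3 complex V.

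The study compared gene expression between C57BL/6 mice, here called WT, and mice of 3 lines that lack the receptor tyrosine kinase MERTK. Retinal pigment epithelium (RPE), the pigmented cell layer that nourishes the photoreceptors and takes up their shed outer segments, was dislodged from the eyecup at postnatal day 25 and used directly ex vivo. Bone marrow-derived macrophages (BMDMs) were grown from the marrow of adult mice in medium conditioned by L929 cells. Mertk-/-V1 mice (V1) carry a deletion of exon 17 made in 129P2 embryonic stem cells, with the neomycin cassette left in place, and were crossed to C57BL/6 mice; a stretch of 129P2 chromosome 2 around Mertk remained in the line. Mertk-/-V2 mice (V2) lost exon 18 by germline excision of a floxed allele with the Rosa26ERT2Cre transgene, which was then bred out, on a background of C57BL/6J with a smaller part of C57BL/6NJ. Mertk-/-V3 mice (V3) lost exons 3 and 4 by CRISPR/Cas9 editing of C57BL/6NJ eggs. The V3 background was also mixed, with a somewhat larger part of C57BL/6J than of C57BL/6NJ. There were 6 WT, 6 V1, 3 V2 and 3 V3 libraries of RPE, and 3 libraries of each genotype of BMDMs, labelled as biological replicates. The labels give no sex for a library; the study lists males and females.

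Oxidative phosphorylation passes electrons from NADH through complex I and from succinate through complex II to ubiquinone, on through complex III and cytochrome c to complex IV, and finally to oxygen. Complexes I, III and IV pump protons out of the mitochondrial matrix, and complex V, the ATP synthase, lets them return and makes ATP. Most subunits are encoded in the nucleus and imported, while a small set of core subunits of complexes I, III, IV and V is encoded by the mitochondrial genome. The RPE is known for a high oxidative capacity, and macrophages shift between glycolysis and respiration as they are activated.

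The libraries held between 14137666 and 34124049 reads assigned to genes, and in BMDMs the WT libraries, at 21187031 to 24869776, were deeper than the V1 libraries, at 17560871 to 20337419. Mertk itself fell in V1 and V3 in both tissues, with log2 fold changes of -1.46 and -2.01 in RPE and of -1.61 and -1.94 in BMDMs. In the libraries labelled V2 it was not lower: the log2 fold change was 0.39 in RPE (limma, adjusted p = 0.954), and in BMDMs it rose by 0.43 (adjusted p = 0.00129). Counts are per gene and a transcript without 1 exon is still counted, so this does not check the V2 label. All 12 RPE markers were read in every RPE library and all 8 macrophage markers in every BMDM library. RPE replicates 4 to 6, which exist for WT and V1 alone, stood apart from replicates 1 to 3 of these genotypes. Summed rod photoreceptor markers ranged from 5439 to 36252 RPM (reads of a gene relative to all reads of its library) in replicates 4 to 6. In WT and V1 replicates 1 to 3 they ranged from 1332 to 4788. The V2 libraries of RPE held 5702 to 9907 and the V3 libraries 2464 to 18083.

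The subunit genes took a similar share of the reads in both tissues. In WT libraries the 39 genes together held between 4825 and 5423 RPM in RPE (median 5110, n = 6) and between 5239 and 5650 in BMDMs (median 5591, n = 3). Per length, in TPM (the same share after division by the length of the union of exons), the median level of a member was 127 in WT RPE and 138 in WT BMDMs. The same genes led in both. Cox8a, a small structural subunit of cytochrome c oxidase, had a median of 1039 TPM in RPE (961 to 1107) and 787 in BMDMs (756 to 926). Atp5a1 and Atp5b, the alpha and beta subunits of the catalytic head of the ATP synthase, were at 775 and 764 TPM in RPE and at 788 and 601 in BMDMs. Cox4i1, the ubiquitous form of cytochrome c oxidase subunit 4, followed at 457 and 464 TPM. At the low end stood Atp5o, the oligomycin sensitivity-conferring protein of the ATP synthase stalk, with 15.1 TPM in RPE and 17.4 in BMDMs. This order depends on the length used. Over the longest transcript, Atp5b led in both tissues, at 1367 TPM in RPE and 1067 in BMDMs. The lowest was then Cox5a in RPE (22.0) and Ndufb5 in BMDMs (23.5), with Atp5o at 25.5 and 29.6. The Atp5o count is uncertain, since 35.6% of its exon bases are shared with genes on the opposite strand. On the same strand, 12.3% are shared with the second Atp5o row, whose own exon bases are 100% shared with Atp5o and Donson. A near-identical copy, Gm5436, held 8.68% of the reads of gene and copy in RPE and 19.6% in BMDMs. Uqcrb and Cox5b are uncertain to a smaller degree: near-identical copies held 5.34% and 2.79% of the reads of gene and copies in RPE, and 7.64% and 5.52% in BMDMs.

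Neighbours in the order by exon union were mostly not separate. Of 38 neighbouring pairs, 33 overlapped in range in RPE and 29 in BMDMs. Across the 39 genes the order in WT RPE and WT BMDMs had a Spearman correlation of 0.90, given as a description, since both orders share gene lengths and base composition. With RPM set side by side and no test, because the tissues were normalized in separate tables and mitochondrial reads take a larger share in RPE, 17 members had every WT BMDM library above every WT RPE library, 8 the opposite, and 14 overlapped. The widest gap in favour of BMDMs was Cox5a, a nuclear-encoded complex IV subunit, with a median of 64.3 RPM against 16.6 in RPE. In the other direction Ndufa4, first described in complex I and now placed with complex IV, had 189 in RPE and 87.4 in BMDMs.

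**Figure D1:**
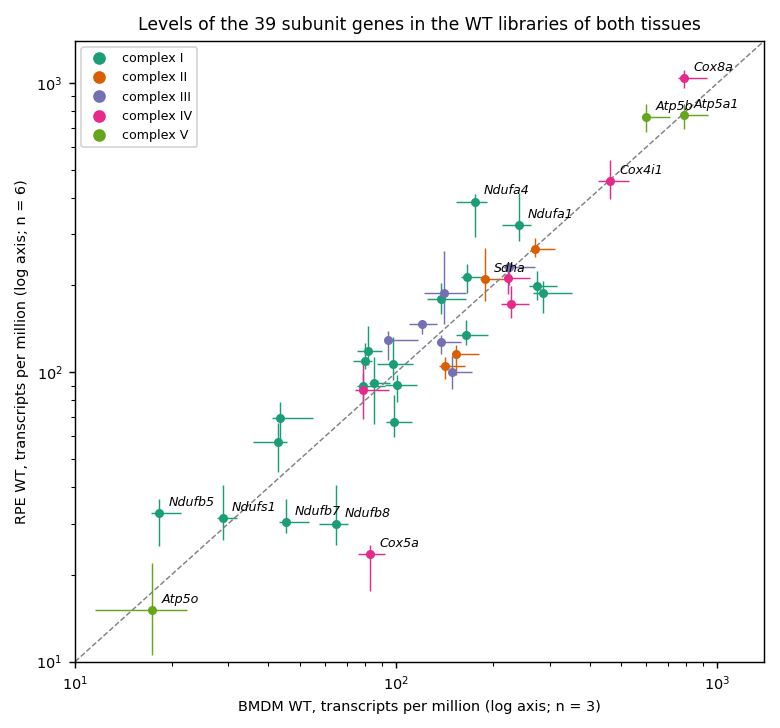
Level of each of the 39 subunit genes in WT BMDMs (x axis) and WT RPE (y axis), in TPM on log axes; points are medians, bars run from the lowest to the highest library, colours mark the complex, and the dashed line marks equal levels. Cox8a, Atp5a1 and Atp5b lie at the top in both tissues, Atp5o at the bottom, and Cox5a lies far below the line.

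Tissue isoforms of these subunits and related genes differed gene by gene: 4 of 9 had every WT RPE library above every WT BMDM library, 1 the opposite, and 4 overlapped. Cox8b, the isoform of Cox8a known from heart and skeletal muscle, had normalized counts of 978 to 1809 in WT RPE, and 1 read in a single library among all 12 of BMDMs. Cox6b2, known from testis, had 494 to 626 in WT RPE and 7.40 to 11.7 in WT BMDMs. Cox6a2, Cox7a1 and Cox4i2, isoforms of muscle or hypoxic tissue, were lower, at medians of 5.96, 5.85 and 4.94 RPM in WT RPE. Ndufa4l2 was at 14.4 to 46.6 in WT RPE, and Cox7b2 and Cox8c were at or near 0 in both tissues. Cox7a2l, a factor of supercomplex assembly, was abundant in both, with medians of 90.5 and 141 RPM. Some of these genes mark muscle, and muscle markers were read in the RPE libraries, at 58.5 to 610 RPM in WT. The part of muscle RNA in these levels was not tested.

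The subunits encoded by mitochondrial DNA showed the clearest gap between the tissues. All 13 had every WT RPE library above every WT BMDM library. Together they held 36837 to 50265 RPM in WT RPE and 6203 to 7004 in WT BMDMs. The ratio of their reads to those of the listed members was 8.08 (7.25 to 9.70) and 1.18 (1.10 to 1.34). Other nuclear subunit genes, at summed medians of 3261 RPM in WT RPE and 3442 in WT BMDMs, are not part of this ratio. The libraries were made from polyadenylated RNA. In WT BMDMs mt-Atp8, mt-Nd3 and mt-Nd4l were low, at medians of 0.447, 1.29 and 1.75 RPM. Near-identical copies of these genes were not searched for. The WT RPE libraries also held 1332 to 15408 RPM of rod markers, and the part of other cells in this gap was not tested.

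In BMDMs of V1 mice the subunit genes were lower as a group, each by a small amount. Of the 39 members, 14 fell and 0 rose (limma on log2(normalized count + 1), adjusted p under 0.05 over all genes), where 3.15% of all 13420 genes tested fell and 3.92% rose. Every one of the 39 fold changes was below 0, as were 51.1% of all. The median was -0.17 on the log2 scale, equal to 11.2% less, against 0.00 over all genes, and the lowest was -0.37. For 30 members all 3 V1 libraries lay below all 3 WT libraries, which held for 15.4% of all genes. None of the 39 also reached the fold threshold that the study asked of a changed gene, which 0.425% of all genes did. In bulk RNA, fewer cells of a type and less RNA per cell cannot be told apart.

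By complex, 6 of 20 complex I members fell, 2 of 4 in complex II, 1 of 6 in complex III, 4 of 6 in complex IV and 1 of 3 in complex V. In complex I the fallen genes were the accessory subunits Ndufa5, Ndufa8, Ndufb3, Ndufb10 and Ndufs4, and the iron-sulfur subunit Ndufs8. Ndufa5 had normalized counts of 702, 655 and 655 in WT and of 558, 496 and 521 in V1. The groups did not overlap, and the log2 fold change was -0.35 ± 0.07 (SE, adjusted p = 0.0126), 21.8% less. Ndufa8 had 1891, 1811 and 1718 in WT and 1536, 1525 and 1581 in V1. Its log2 fold change was -0.22 ± 0.05 (adjusted p = 0.0196). Ndufa8 lies on chromosome 2, as does Ndufs3, but neither lies between Thbs1 and Plcb1, genes on either side of Mertk on that chromosome. The other complex I members ranged from Ndufs1, the large iron-sulfur subunit, at -0.03 ± 0.04, to Ndufb9 at -0.37 ± 0.14, which had the widest spread of the complex and did not pass.

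In complex II, Sdhd, which anchors succinate dehydrogenase in the membrane, had normalized counts of 2663, 2545 and 2551 in WT and of 2330, 2250 and 2251 in V1. It fell by 0.18 ± 0.04 (adjusted p = 0.0156). Sdha, the flavoprotein that oxidises succinate, had 6037, 5981 and 5991 in WT and 5521, 5591 and 5454 in V1. Its fall of 0.12 ± 0.03 was 8.02% and passed at an adjusted p of 0.0455. Sdhb and Sdhc did not pass.

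In complexes III to V the same small shift was seen. Uqcrq, a small subunit of complex III, had 2193, 2087 and 2072 in WT and 1804, 1738 and 1986 in V1 (-0.20 ± 0.05, adjusted p = 0.0403). In complex IV, Cox4i1, Cox5a, Cox6c and Cox8a fell, by 0.18 to 0.21. Cox6c had 2254, 2245 and 2044 in WT and 1893, 1957 and 1881 in V1 (adjusted p = 0.0229), and Cox8a 3746, 3806 and 3755 against 3361, 3228 and 3344 (adjusted p = 0.0231). Their groups did not overlap. In complex V, Atp5a1 had 19786, 19401 and 18946 in WT and 17239, 17095 and 17520 in V1, a fall of 0.16 ± 0.04 (adjusted p = 0.035), while Atp5b, at -0.13 ± 0.04, did not pass.

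**Figure D2:**
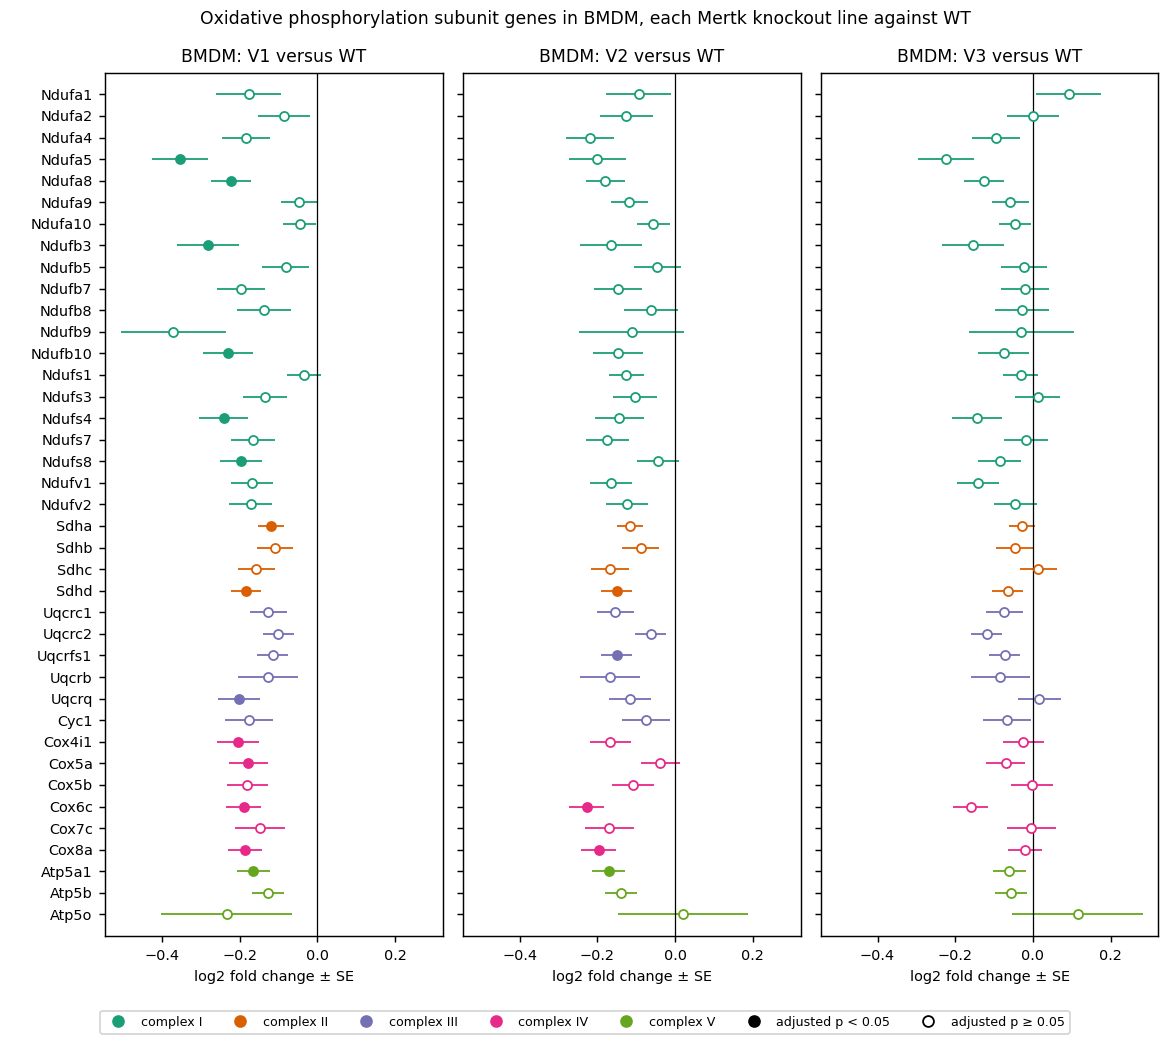
Log2 fold change (x axis, bars ± SE) of each of the 39 subunit genes (rows, coloured by complex) in BMDMs of V1, V2 and V3 mice against WT, n = 3 libraries per group; filled points passed an adjusted p of 0.05. All 39 points lie left of 0 in V1, 38 in V2 and 33 in V3, and 14, 5 and 0 are filled.

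The count of 14 rested on single libraries, while the direction did not. It was 0 without WT replicate 1, 2 without WT replicate 2 or V1 replicate 1, 1 without V1 replicate 2, 3 without V1 replicate 3 and 20 without WT replicate 3, and genes called over the whole table dropped as well, from 949 to between 242 and 443 in the first 5 of these. The median stayed between -0.13 and -0.18 in those 5 and was -0.21 without WT replicate 3. WT replicate 1 held the highest count of the WT libraries for Ndufa5, Ndufa8, Sdhd and Atp5a1. On the recovered reads, edgeR called 10 members and DESeq2 17, all lower, and the shares of all genes that they called are not given here.

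**Figure D3:**
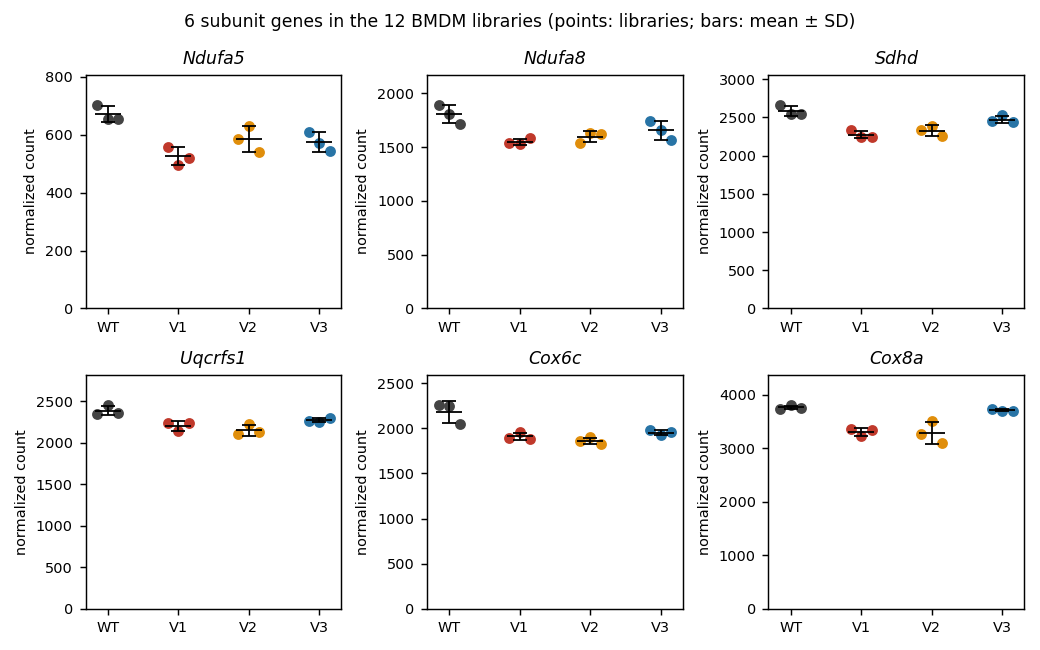
Normalized counts (y axis, from 0) of 6 subunit genes in the 12 BMDM libraries by genotype (x axis); points are libraries and bars the mean ± SD, n = 3. All 3 V1 points lie below all 3 WT points in each of the 6 genes. The fold changes of V1 against WT run from 7.66% less for Uqcrfs1, which did not pass, to 21.8% less for Ndufa5.

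In BMDMs of the libraries labelled V2, 5 members fell and 0 rose, where 2.36% of all genes fell and 2.24% rose. These comparisons share their WT libraries with those of V1. The median log2 fold change was -0.14, with 38 of 39 below 0 (50.3% of all genes), and 18 members had groups that did not overlap, against 12.7% of all genes. The 5 were Sdhd, Uqcrfs1, Cox6c, Cox8a and Atp5a1. Cox6c had 1854, 1899 and 1828 in V2 (-0.23 ± 0.04, adjusted p = 0.0142). Cox8a had 3262, 3514 and 3101 (-0.20 ± 0.04, adjusted p = 0.0252). Both genes lay below every WT library in all 3 V2 libraries. Sdhd, at 2342, 2389 and 2258, fell by 0.15 (adjusted p = 0.0472), and Atp5a1, at 16455, 17804 and 17414, by 0.17 (adjusted p = 0.0392). Uqcrfs1, the Rieske iron-sulfur protein of complex III, had 2350, 2449 and 2359 in WT and 2100, 2225 and 2126 in V2, and passed at 0.0484. No complex I member passed. The count was 0 without WT replicate 1 or WT replicate 2 and 1 without V2 replicate 1.

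In BMDMs of V3 mice, 0 members passed by limma (background 1.17% in either direction), and 0 by edgeR or DESeq2 on the recovered reads. The median was -0.05, and 33 of 39 were below 0 (48.7% of all genes). At an unadjusted p under 0.05, 6 members were lower, where 8.05% of all genes were. The lowest p belonged to Cox6c, with 1976, 1921 and 1954 against 2254, 2245 and 2044 in WT (-0.16 ± 0.04, adjusted p = 0.101), and to Ndufa5, with 611, 570 and 542 (-0.22 ± 0.07, adjusted p = 0.153). Both had V3 libraries below all WT libraries. The difference between V1 and the mean of V2 and V3 was below 0 for 35 of 39 members (49.7% of all genes), with a median of -0.08, and 0 passed by limma, edgeR or DESeq2 (background 0.991%). At an unadjusted p under 0.05, 9 were lower, where 5.28% of all genes were, led by Uqcrq (-0.15 ± 0.05, adjusted p = 0.214) and Cox5a (-0.12 ± 0.04, adjusted p = 0.288). The summed RPM of the members were 4890 to 4954 in V1, 4887 to 5105 in V2, 5151 to 5324 in V3 and 5239 to 5650 in WT.

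Other genes of the pathway were counted from lists, to be read against the 3.15% of all genes that fell and 3.92% that rose in V1, and the 2.36% and 2.24% in V2. Of 40 other nuclear subunit genes, 6 fell in V1 and 3 in V2 BMDMs, and 0 rose. Atp5f1, of the ATP synthase stalk, had the lowest p in both (-0.21 and -0.22, adjusted p = 0.00602 and 0.00521), and Uqcr11, a small subunit of complex III, was next (-0.29 and -0.22). Among 12 mitochondrial-encoded genes tested, 0 passed in V1 or V2 by limma, and their medians were above 0, at 0.20 and 0.18. The ratio of mitochondrial-encoded to member reads was 1.252 to 1.81 in V1 and 1.33 to 1.52 in V2, and 1.10 to 1.34 in WT, so that the ranges overlapped. Of 41 assembly factors, 2 fell in each line, with Coa3, a factor of complex IV assembly, in both (-0.30 in each). Of 20 regulators of mitochondrial biogenesis 1 passed, Myc, which rose by 0.32 and 0.37. Of 16 tricarboxylic acid cycle genes, Mdh2, mitochondrial malate dehydrogenase, fell in V1 (-0.20, adjusted p = 0.0298) and 0 passed in V2. In V3, 0 genes of these 5 lists passed. Among the 8 macrophage markers, C1qa, a complement component, fell in V1 (-0.39) and V3 (-0.31), and the summed markers overlapped, at 13007 to 13729 RPM in V1 and 13538 to 14355 in WT. Rod photoreceptor, muscle and fibroblast markers summed to under 5 RPM each in every BMDM library. Tnnt3, a muscle troponin, rose in V1 (1.52, adjusted p = 0.0262).

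Promoter windows of 28 of the 39 members were given by RefSeq on GRCm38.p6, from 250 bases before to 50 after the start. The stretches just before the starts of Sdhd and Cox8a are shown because these genes fell in both V1 and V2 BMDMs, and that of Sdha because it holds a match to the binding motif of NRF1, a transcription factor known for nuclear genes of the respiratory chain. Each is written 5′ to 3′ on the minus strand and holds only bases before the start that no annotated exon covers. Capitals mark matches to the motifs searched, on either strand, of which the stretch of Cox8a holds none.
Sdha, chr13:74350281-74350308: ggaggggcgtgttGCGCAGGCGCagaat
Sdhd, chr9:50603850-50603909: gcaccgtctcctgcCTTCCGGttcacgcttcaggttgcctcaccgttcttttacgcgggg
Cox8a, chr19:7217617-7217766: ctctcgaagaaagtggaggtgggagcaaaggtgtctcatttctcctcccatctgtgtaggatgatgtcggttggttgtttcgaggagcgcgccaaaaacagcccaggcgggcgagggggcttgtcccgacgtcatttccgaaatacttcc

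The capitals in Sdha match the NRF1 motif, and those in Sdhd match CCGGAAG, the motif of ETS factors such as GABPA, on the other strand. Over the whole windows, the NRF1 motif was found in 6 of 28 members (21.4%) in 5.19% of 27025 genes with a window and in 7.17% of the 17491 protein-coding ones, the kind that all members are. CCGGAAG was found in 6 members (21.4%), 9.93% of genes and 12.9% of coding genes, and ATGGCGG, the motif of YY1, in 7 members (25%), 4.69% and 6.05%. GGGCGG, of the SP1 family, was in 11 members (39.3%), 38.2% of genes and 49.2% of coding genes. CCAAT, of NF-Y, was in 6 members (21.4%), 41.1% and 42.3%, and AAGGTCA, of the estrogen-related receptors, in Sdhd alone (3.57%), 5.38% and 4.73%. Of the 10 members with a window that fell in V1 BMDMs, 6 held the NRF1 or the ETS motif, and of the other 18 members 5 did. ATGGCGG was in 2 of the 10 and 5 of the 18, GGGCGG in 4 and 7, CCAAT in 4 and 2, and AAGGTCA in 1 and 0. These splits were not tested, and they rest on calls that numbered 0 to 20 with 1 library left out. These are matches of letters, not measured sites.

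In RPE the members spread more widely than in BMDMs. The coefficient of variation of a member had a median of 11.4% over the 6 WT RPE libraries and 4.86% over the 3 WT BMDM libraries, and by limma, edgeR and DESeq2 0 members passed in any of the 3 lines. By sign of the fold change, 37 of 39 members were below WT in V1, 39 of 39 above WT in V2 and 39 of 39 below WT in V3, where 46.2%, 45.8% and 50.8% of all genes were below. Members of the same libraries are not independent, so these counts do not test a line. The summed members were 4825 to 5423 RPM in WT. V1, at 4415 to 5635, and V3, at 4258 to 4942, overlapped WT, and V2, at 5494 to 6344, did not. The 3 comparisons share their WT libraries.

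In V1 RPE the median log2 fold change was -0.14 (background 0.388% of genes called), and 1 member was lower at an unadjusted p under 0.05, where 3.5% of all genes were. Ndufa1, an X-linked accessory subunit of complex I, had a lowest, median and highest normalized count of 995, 1232 and 1489 in WT and of 791, 1011 and 1233 in V1 (-0.30 ± 0.14, adjusted p = 0.719). Ndufs7, an iron-sulfur subunit, was next, at 1164, 1381 and 1438 in WT and 955, 1161 and 1448 in V1. For both genes the groups overlapped widely. Among markers of cell types, 11 of 12 RPE markers had fold changes below 0 in V1 (median -0.50) and 0 of them passed. Their sums were 9794 to 25126 RPM in V1 and 23042 to 33143 in WT. All 7 skeletal muscle markers tested were below 0 (median -0.67), and 0 passed. Of 8 macrophage markers, Fcgr1 (1.13, adjusted p = 0.00506) and C1qa (1.04, adjusted p = 0.0346) rose, while the sums overlapped, at 243 to 439 RPM in V1 and 317 to 467 in WT. The part of these cells in the member values was not tested. Within replicates 1 to 3 the median over members was -0.04, and within replicates 4 to 6 it was -0.25, with 0 called in either.

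In V2 RPE the median was 0.21 (background 0.069%), 15.7% more than WT, and 5 members were higher at an unadjusted p under 0.05, where 2.86% of all genes were. For 5 members all V2 libraries lay above all WT libraries, against 3.72% of genes. Ndufb5, an accessory subunit of complex I, had 1558, 1505 and 2135 in V2, and 1219, 1384 and 1512 as lowest, median and highest in WT (0.32 ± 0.12, adjusted p = 0.803). Cox6c had 2775, 2950 and 4065 in V2 and 2540 to 2890 in WT (0.28 ± 0.11, adjusted p = 0.875). V2 replicate 3 was far above the rest in both genes. It also had the highest sum over the members, 6344 RPM, and the highest sum of skeletal muscle markers, 809.6. The median was 0.11 without V2 replicate 3, 0.12 against WT replicates 1 to 3 and 0.29 against WT replicates 4 to 6.

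In V3 RPE the median was -0.28 (background 0.069%), 17.5% less than WT, and 17 members were lower at an unadjusted p under 0.05, where 6.31% of all genes were. For 4 members all V3 libraries lay below all WT libraries, against 1.57% of genes. Cox5a had 318, 272 and 293 in V3, and 292, 444 and 516 as lowest, median and highest in WT (-0.49 ± 0.17, adjusted p = 0.449), an overlap of a single WT library with V3. Ndufb3 had 916, 827 and 1063 in V3 and 1075, 1241 and 1319 in WT (-0.37 ± 0.13, adjusted p = 0.449), with no overlap. The count of calls changed with the replicate set kept. These fits left out the V1 libraries of the other set as well, so the shared spread changed along with the WT libraries. Against WT replicates 1 to 3 the median was -0.36 and 17 members fell, and against WT replicates 4 to 6 it was -0.22 and 0 fell. With libraries weighted by their quality all 39 fell, and with the rod markers as a covariate 4 did. The share of all genes called under these settings is not given here, so these counts do not set the members apart. The summed muscle markers were 96.6 to 151 RPM in V3 and 58.5 to 610 in WT, and their part in the difference was not tested. Between V1 and the mean of V2 and V3 the median was -0.10 and 0 members passed by limma, edgeR or DESeq2 (background 0.207%), and 2, Cox6c and Ndufa1, were lower at an unadjusted p under 0.05, where 3.81% of all genes were. The direction was not stable: with library weights the median was 0.07 and 4 members passed, all higher, and with replicate number as a block it was 0.02.

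**Figure D4:**
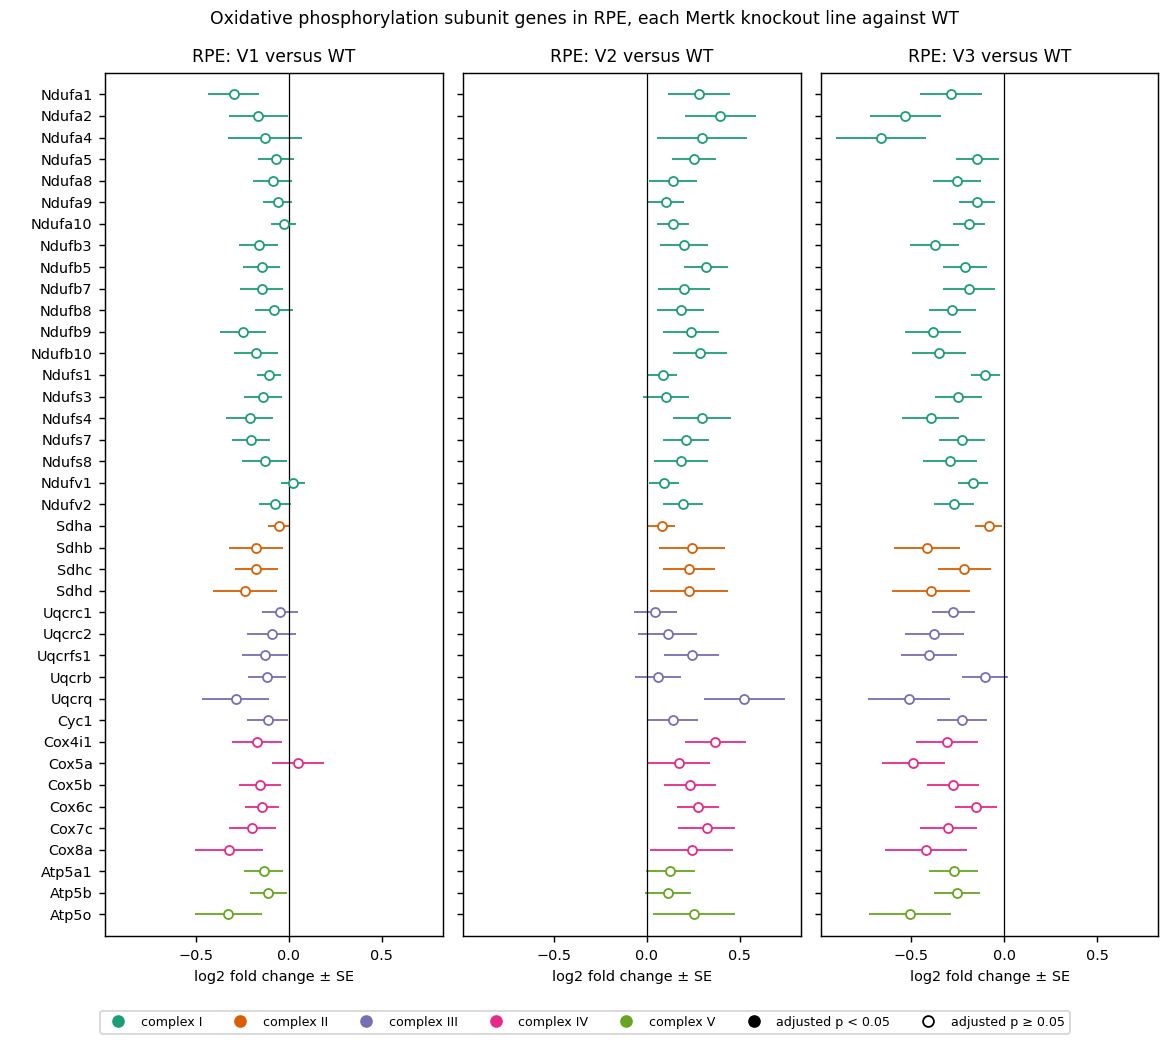
Log2 fold change (x axis, bars ± SE) of each of the 39 subunit genes (rows, coloured by complex) in RPE of V1 (n = 6), V2 (n = 3) and V3 (n = 3) mice against WT (n = 6). All points are open, since 0 passed an adjusted p of 0.05, and the medians are -0.14, 0.21 and -0.28.

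More members passed between the RPE replicate sets than between genotypes, at a median close to that of V3 against WT. Comparing replicates 4 to 6 with replicates 1 to 3 in WT and V1, with genotype as a term, 24 of 39 members fell and 0 rose, where 21.7% of all genes fell and 18.9% rose, and the median was -0.29. Ndufa4 had 5399, 5318, 5138, 4871, 3099 and 3209 in WT replicates 1 to 6, and 5353, 5362, 4880, 3180, 2992 and 3141 in V1 replicates 1 to 6. WT replicate 4 stayed near replicates 1 to 3, and the log2 fold change was -0.64 ± 0.10 (adjusted p = 0.00725). Uqcrc2, a core protein of complex III, fell by 0.42 (adjusted p = 0.00734), Uqcrq by 0.53 (adjusted p = 0.00734) and Uqcrfs1 by 0.37 (adjusted p = 0.00737). By complex, 10 of 20, 3 of 4, 5 of 6, 4 of 6 and 2 of 3 members fell in complexes I to V. Within WT alone the median was -0.17 and within V1 alone -0.36, with 0 called in either. With the rod markers as a covariate 0 were called and the median was -0.12. The rod markers themselves differed between the sets, so that fit cannot separate them from the set. The share of all genes called under these settings is not given here, so the counts do not set the members apart. The labels do not say how the sets differ.

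Markers of RPE and of other cells moved with the sets. All 12 rod photoreceptor markers rose (median 2.05), 5 of 7 skeletal muscle markers tested fell (median -1.68) and 8 of 12 RPE markers fell (median -0.64). Of the 13 mitochondrial-encoded genes, 6 rose, led by mt-Atp8 (1.89) and mt-Nd4l (1.71). Those 6 were the lowest of the 13 in RPE, with mean normalized counts from 368 (mt-Nd3) to 3806 (mt-Co2). The others, at 45953 (mt-Nd6) to 375648 (mt-Co1), were not called, with log2 fold changes from -0.04 (mt-Nd6) to 0.10 (mt-Nd2). Near-identical copies of the mitochondrial-encoded genes were not searched for. Over the 18 RPE libraries the summed members correlated with the summed muscle markers at a Pearson r of 0.76, with the rod markers at -0.48 and with the RPE markers at 0.52. These are descriptions of libraries that fall into sets, with shared totals. The part of these cells in the member differences was not tested.

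**Figure D5:**
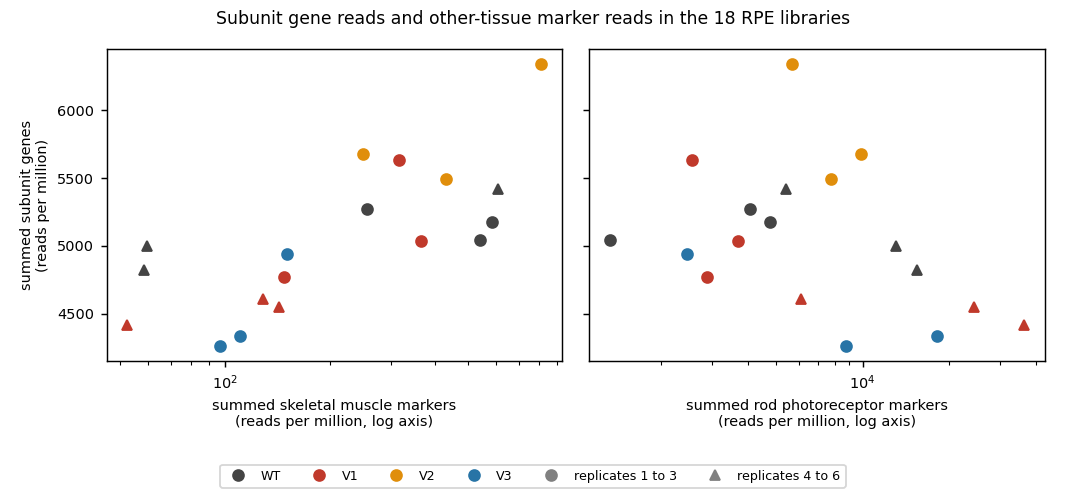
Summed RPM of the 39 subunit genes (y axis) in the 18 RPE libraries against summed skeletal muscle markers (left) and summed rod photoreceptor markers (right; both x axes log), coloured by genotype, with circles for replicates 1 to 3 and triangles for replicates 4 to 6. V2 lies at 5494 to 6344, above all WT libraries but not above all V1 libraries, which reach 5635, and V3 lies at 4258 to 4942.

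Whether the lines acted differently on these genes in RPE and BMDMs was tested as the difference of the effects in both tissues in 1 fit. For V1, V2 and V3, 0 members passed by limma (background 0.376%, 0.12% and 0.04%). The median difference, RPE minus BMDM, was 0.02 for V1, where 24 of 39 were above 0 and 0 had an unadjusted p under 0.05, with Ndufv1 (0.19 ± 0.09) and Ndufa5 (0.28 ± 0.14) at the lowest p, both at an adjusted p of 0.589. It was 0.34 for V2, with all 39 above 0 and 17 higher at an unadjusted p under 0.05, where 5.5% of all genes were. Cox6c led, with an effect of 0.28 in RPE and -0.23 in BMDMs and a difference of 0.51 ± 0.14 (adjusted p = 0.179), followed by Ndufa5 at 0.45 ± 0.15 (adjusted p = 0.273). For V3 the median difference was -0.23, where all genes had -0.07, and 1 member, Ndufa2, had an unadjusted p under 0.05 (-0.53 ± 0.24, adjusted p = 0.773), with Cox5a next (-0.42 ± 0.21). DESeq2 called 1 member for V2. With RPE replicates 1 to 3 alone 1 was called for V2 and 13 for V3, with no share of all genes given beside these counts.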

How the data were processed

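RNA of RPE and BMDMs was sequenced as polyadenylated, paired-end libraries. The authors trimmed reads, aligned them to GRCm38 (mm10) with STAR and deposited 1 table of normalized counts per tissue, in which each read count was divided by a DESeq2 size factor of its library (a signal that is comparable between libraries of a table). The counter and its annotation are not given in the sources used here. All values came within 0.01 of whole reads, and these reads gave the depth of each library and the input of count models.

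Genes with a mean normalized count of at least 10 were tested on log2(normalized count + 1) with limma 3.58.1 (lmFit, eBayes with trend, R 4.3.3), all genotypes of a tissue in 1 fit, with Benjamini-Hochberg adjustment over all genes. A call is an adjusted p under 0.05. Fold changes on this scale understate those of low genes. edgeR 4.0.16 and DESeq2 1.42.0 on the recovered reads, other filters, scalings, library weights, replicate sets and left-out libraries were alternatives. The code was tested on simulated data. The members and gene lists were chosen with earlier results of these data known. The text gives with fold change and p, for each comparison, up to 4 members called in each direction by lowest adjusted p, or the 2 of lowest p where fewer than 2 were called, and from each pathway list the 2 called genes of lowest p in each direction. In the V1 and V2 comparisons of BMDMs, other members beyond this rule (among them Sdha, Uqcrq, Cox8a, Atp5a1, Uqcrfs1, Ndufb9, Ndufs1 and Atp5b) and the markers C1qa and Tnnt3 were added after their values were seen. Copies were matched with BLAST 2.17.0 at 97% identity. P-values measure the spread between libraries labelled as biological replicates. Whether same-numbered libraries deviated together from their group means was checked per pair of genotypes. All 6 WT and V1 pairs of RPE did (correlations 0.12 to 0.72), but WT 1 also correlated with V1 2 and V1 3 (0.62 and 0.67), and with replicate number as a block 0 members were called in V1 RPE, as without it. No other pair of genotypes had every correlation over 0.1 (WT and V3 of RPE, -0.33 to 0.30; all BMDM pairs, -0.30 to 0.36).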

Additional observations from a re-analysis of the deposited data

Results flagged for a closer look

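In 4 of 94 groups of values with 4 to 10 libraries, 1 library stood far from the others, judged by its gap to the nearest library over the range of the group, and chance flags about 1 group in 20. Ndufb8, an accessory subunit of complex I, had 1095 normalized counts in WT replicate 4 of RPE and 719.5 to 846.4 in the other WT libraries, a gap of 0.662 of the range. Uqcrb, a complex III subunit with near-identical copies, had 1959 in the same library and 1260 to 1518 in the others, a gap of 0.631. Uqcrb also stood out in V1 replicate 2 of RPE, with 1454 against 1295 to 1341, a gap of 0.711. In that V1 library the complex V members summed to 2074 RPM, against 1674 to 1803 in the other V1 libraries, a gap of 0.676.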

How the results depend on the processing

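Of 39 members, 14 fell in V1 BMDMs. The count was 3 with no filter on low values, 9 with quantile normalization, 27 with library weights and 0 with the added fold threshold, and 0 to 20 with 1 library left out. In V2 BMDMs, 5 fell. The count was 1 with no filter, 0 with V2 and WT alone in the fit, 3 with quantile normalization, 8 with library weights, 3 by edgeR, 9 by DESeq2 and 0 with the fold threshold, and 0 to 7 with 1 library left out. In V3 BMDMs it was 6 with library weights and 0 to 1 with 1 library left out. In V3 RPE, where 0 passed, it was 39 with library weights, 4 with the rod markers as a covariate and 17 against WT replicates 1 to 3. Between V1 and the mean of V2 and V3 in RPE it was 4 with library weights, all higher, where the median was 0.07 in place of -0.10. Between the RPE replicate sets it was 0 within WT, 0 within V1, 0 with the rod markers as a covariate and 0 with the fold threshold, and 19 to 28 with 1 library left out. For the difference between tissues it was 1 for V2 by DESeq2, and 1 for V2 and 13 for V3 with RPE replicates 1 to 3 alone. The median member level in WT RPE was 145 TPM over the longest transcript, against 127. The cause of these changes was not tested. With replicate number as a block, in comparisons whose same-numbered libraries did not all deviate together, the counts were 5 in V1 and 1 in V2 BMDMs, 28 in V3 RPE and 14 for the V3 difference between tissues. The block changed no other count of calls. The share of all genes called under each alternative is not given here, so these counts are not set against a background. All 39 members passed the filter on low values, and the number of libraries limits the precision.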
